A study of Xenopus laevis with 8 samples.

Results

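DNA replication genes were examined in *Xenopus laevis* animal caps that received eye field transcription factors (EFTFs). The members are the probe sets whose array annotation names a subunit of the MCM, ORC, GINS, RFC, RPA, polymerase alpha, delta or epsilon, primase or ribonucleotide reductase families, or 1 of 14 further replication genes such as *cdc6*, *pcna* and *tyms*. This gave 69 of 15491 probe sets, for 61 gene symbols and 52 genes when the homoeologous copies (.L and .S) are joined. No probe set was found for *timeless*. Membership follows from names alone, but the list of names was chosen with earlier results of these data known.

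The EFTF caps came from embryos injected at the 2-cell stage with RNA for *pax6*, *tbx3*, *rx1* (*rax*), *nr2e1*, *six3*, *six6* and *otx2* together with RNA for a fluorescent protein. The control caps received the fluorescent protein RNA alone, which the labels call GFP and the methods of the study call Venus YFP. By those methods all embryos also carried a *venus YFP* transgene. Caps were cut at stage 9, when they are pluripotent ectoderm, and kept in culture to the equivalent of stage 15. Each of 4 EFTF and 4 GFP arrays read RNA pooled from several caps, so the factors were supplied as injected RNA to a mixed explant. In such bulk RNA, more cells in S phase and more RNA per cell cannot be told apart.

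Before a cell can copy its DNA, the origin recognition complex (ORC), CDC6 and CDT1 load the MCM2 to MCM7 helicase onto chromatin, a step called licensing that geminin blocks. The CDC7-DBF4 kinase, CDC45 and GINS then start the helicase, polymerases extend primers laid down by primase, and the sliding clamp PCNA is placed by the RFC loader. Frog eggs hold stores of these proteins for the rapid cleavage divisions, and embryonic transcription renews them only later. In many animals E2F transcription factors switch replication genes on together as a cell enters S phase.

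Replication transcripts were higher in EFTF caps on average. The mean log2 RMA intensity (the normalized brightness of a probe set) was higher in EFTF than in GFP caps for 62 of 69 members, or 89.9%, where 54.1% of all probe sets were. With equal array medians the counts were 58 of 69 and 41.6% of all probe sets, since *orc2.S*, *orc5.L*, *pole3.L* and a *tipin.L* probe set, all near 0, changed sign, and with quantile normalization they were 59 of 69 and 51.1%. The median change of the members was 0.62 on the log2 scale, or 1.53-fold, beside 0.023 over all probe sets. A level 2-fold or more above that of GFP caps was found for 20 members, or 29.0%, against 2.76% of all probe sets, and 0 members lay 2-fold or more below it, against 3.84% (no test). The MCM helicase and nucleotide synthesis groups had the highest medians, 1.18 and 0.98.

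Most single genes did not pass the unpaired test. In limma, with adjusted p-values computed over the whole array, 1 member was called higher (1.45%, where 0.762% of all probe sets were) and 0 lower (0.658% of all, and 1.42% in either direction). The share called was near that of the array. At an unadjusted p under 0.05 the counts were 34 higher, or 49.3% of members against 9.30% of all probe sets, and 0 lower, against 7.98%. The sample titles number the arrays from 1 to 4 in both groups. Arrays of the same number deviated from their group means together (r = 0.217 to 0.639 across probe sets), where unlike numbers gave -0.453 to 0.281. Deviations from a group mean sum to 0 over its arrays, so a positive r for like numbers in itself lowers the r of unlike numbers. The number was taken to pair the arrays, which is least clear for number 3. Its r of 0.217 was below the 0.281 of EFTF 2 with GFP 3. The blocked counts rest on this pairing, which was read from the same data. With the replicate number as a block, 17 members were called higher and 0 lower. That is 24.6% of members, where this fit called 4.91% of all probe sets higher, 5.25% lower and 10.2% in either direction. With replicate 4 as a batch the count was 12 higher and 0 lower, where 2.5% of all probe sets were higher, 2.37% lower and 4.87% either, and 11 of the 12 were among the 17. In the unpaired fit without EFTF 1 the count was 12 (2.62% of all probe sets higher), and 7 of these were among the 17. The groups did not overlap, all 4 EFTF arrays above all 4 GFP arrays, in 14 members, or 20.3%, beside 5.42% over the array, and 0 members had all EFTF arrays below all GFP arrays, beside 4.75%.

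**Figure D1:**
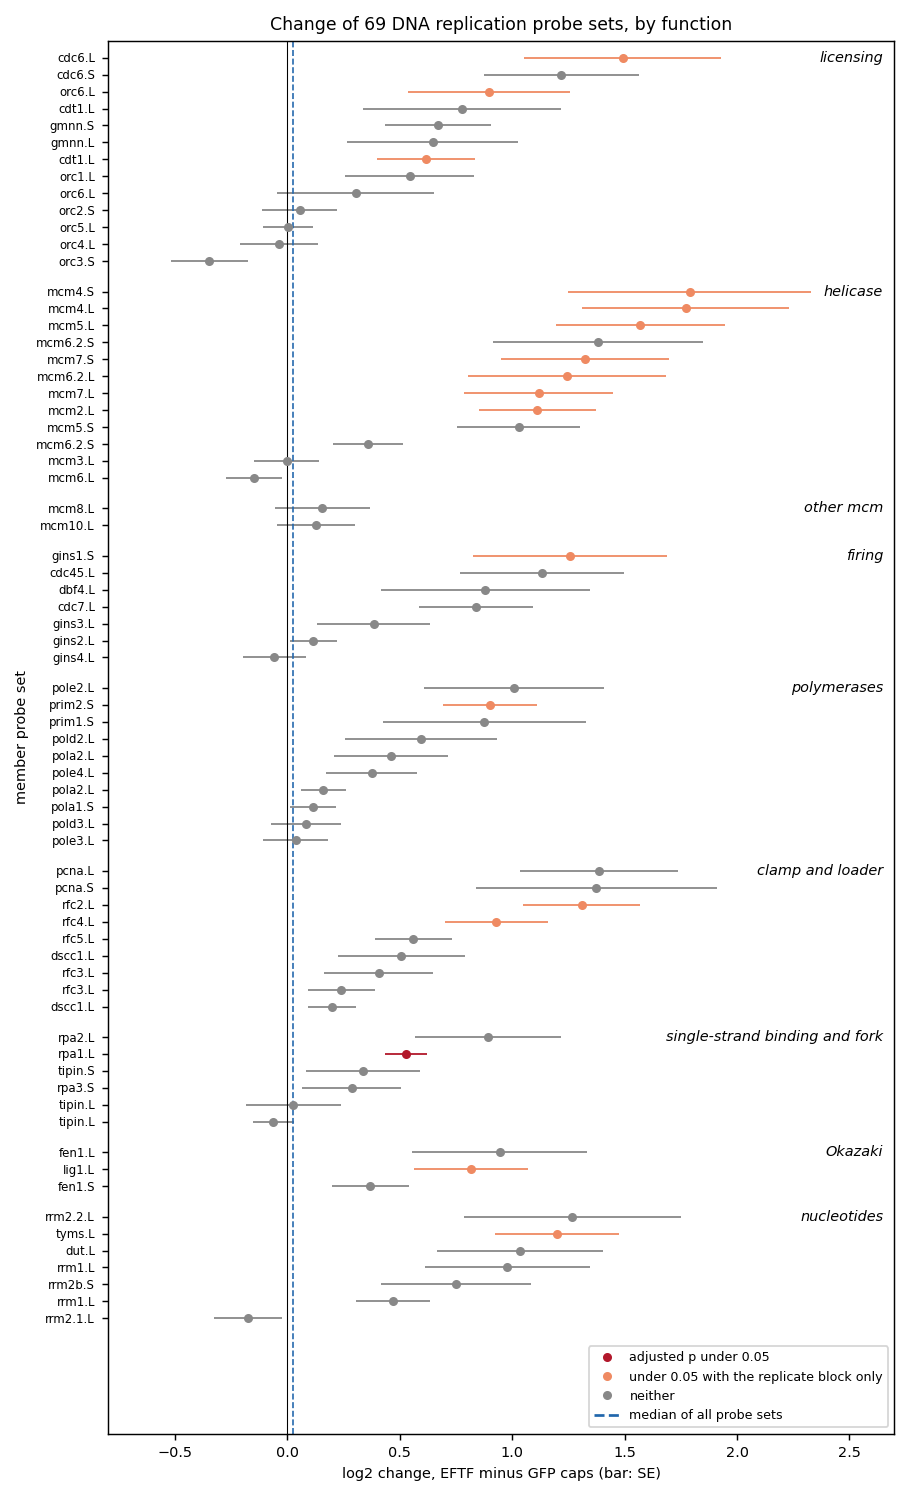
Each point is 1 of 69 member probe sets, with its log2 change (EFTF minus GFP caps, 4 arrays each) on the horizontal axis and the SE as a bar, grouped by function and coloured by the limma test. The points lie to the right of zero for 62 members, and the dashed line marks the median of all probe sets at 0.023.

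**Figure D2:**
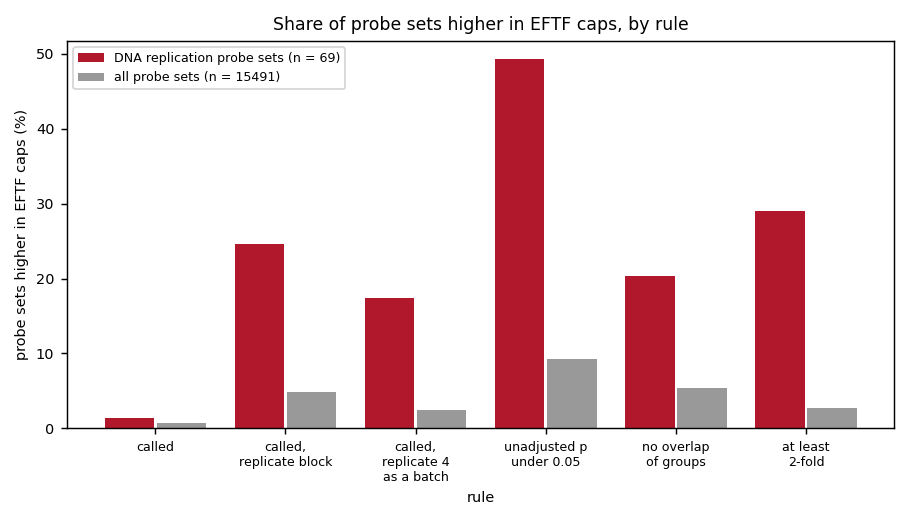
Bars give the percentage of the 69 member probe sets (left bar of each pair) and of all 15491 probe sets (right bar) that were higher in EFTF caps by each of 6 rules. The share of members is 24.6% against 4.91% with the replicate block and 1.45% against 0.762% without it.

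One array, EFTF 2, had a higher background (the brightest of 17 tag controls, whose probes have no target in the sample) than the rest, 3.18 on the log2 scale, where the other 7 arrays had 2.90 to 2.97. On EFTF 2, 72.4% of probe sets were above background, and on the other arrays 80.7% to 83.4%, while median intensities ran from 16.8 to 18.9. Without EFTF 2 the median change of the members was 0.76 and the limma call of *rpa1.L* was lost (adjusted p = 0.0752). The title of GFP replicate 1 says GFP while its source label says EFTF. This array read *otx2.L* at 6.30, where the lowest EFTF array read 9.21, and the title was used. Over all probe sets, however, GFP 1 correlated most with EFTF 1 (r = 0.983), above its r of 0.961 to 0.977 with the other GFP arrays. Of the members, 57 were above background on all 8 arrays and 1, the dimmer *tipin.L* probe set, on none. The other 11 were above it on some arrays only, and 0 of these 12 were called in either fit.

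Of 13 probe sets for licensing genes, 11 were higher on average (9 with equal array medians, with *orc2.S* and *orc5.L* turned). In limma 0 were called higher or lower, and 5 were higher and 0 lower at an unadjusted p under 0.05 (9.30% of all probe sets higher). With the block 3 were called higher, where that fit called 4.91% of all probe sets higher. Differences between subunits were not tested. *cdc6*, which helps to load the helicase, was measured by a probe set for each homoeolog. *cdc6.L* read 7.39, 6.95, 7.77 and 8.73 on EFTF arrays 1 to 4, against 6.81, 5.80, 5.51 and 6.76 on GFP arrays 1 to 4. All EFTF arrays were above all GFP arrays, and EFTF 4 was the highest. The change was 1.49 ± 0.44 (SE), or 2.81-fold, with adjusted p = 0.132 in limma and adjusted p = 0.0359 with the replicate block. *cdc6.S* also separated the groups (change 1.22 ± 0.34, adjusted p = 0.122, blocked adjusted p = 0.0673).

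CDT1 brings the helicase to ORC, and geminin (*gmnn*) binds and inhibits it. *cdt1.L* read 8.37, 8.59, 8.64 and 9.27 in EFTF caps, against 8.03, 8.15, 7.78 and 8.43 in GFP caps. Only EFTF 1, below GFP 4, kept the groups from separating. The change was 0.62 ± 0.22 (adjusted p = 0.193, blocked adjusted p = 0.042), and the dimmer *cdt1.L* probe set differed by 0.78 ± 0.44 (blocked adjusted p = 0.111). The inhibitor was higher on average as well, by 0.65 for *gmnn.L* and 0.67 for *gmnn.S*, and neither passed (adjusted p = 0.46 and adjusted p = 0.19).

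Of the ORC subunits, *orc6.L*, the smallest one, had the largest difference. It read 5.39, 5.36, 6.57 and 6.62 in EFTF caps and 4.88, 4.71, 5.06 and 5.69 in GFP caps, with EFTF 3 and EFTF 4 above the rest and GFP 4 within the EFTF range. The change of 0.90 ± 0.36 passed with the block (adjusted p = 0.0385) and not without it (adjusted p = 0.251). The dimmer *orc6.L* probe set, above background on 2 EFTF arrays and 1 GFP array, differed by 0.30 ± 0.35 (adjusted p = 0.755, blocked adjusted p = 0.447). *orc1.L*, the subunit whose amount follows the cell cycle in mammalian cells, differed by 0.54 ± 0.29 (adjusted p = 0.39). The core subunits *orc2.S*, *orc3.S* and *orc4.L* differed by 0.05, -0.35 and -0.04, with adjusted p from 0.351 to 0.949, and *orc5.L* exceeded background on 1 EFTF array and no GFP array.

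Of 12 probe sets for the helicase subunits MCM2 to MCM7, 10 were higher on average and 9 at least 2-fold (2.76% of all probe sets). In the unpaired limma fit 0 were called higher or lower. At an unadjusted p under 0.05, 10 were higher (9.30% of all probe sets) and 0 lower (7.98%). With the replicate block 7 were called higher, where that fit called 4.91% of all probe sets higher. *mcm4.S*, *mcm4.L* and *mcm5.L* had the largest changes of all members. *mcm4.L* read 4.59, 5.17, 6.38 and 6.48 in EFTF caps, against 3.84, 3.43, 3.64 and 4.63 in GFP caps. It was 3.41-fold higher (1.77 ± 0.46, adjusted p = 0.0985, blocked adjusted p = 0.0299). EFTF 1 was the lowest of its group and lay just below GFP 4. The homoeolog *mcm4.S* read 4.31, 4.81, 6.14 and 6.81 in EFTF and 3.61, 3.53, 3.35 and 4.42 in GFP caps, a change of 1.79 ± 0.54 (adjusted p = 0.139, blocked adjusted p = 0.0379).

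*mcm5.L*, part of the gate through which the MCM ring closes around DNA, read 6.85, 7.72, 8.02 and 8.44 on EFTF arrays and 6.21, 5.85, 5.76 and 6.93 on GFP arrays. EFTF 1 again lay below GFP 4, and the other EFTF arrays lay above every GFP array. The change was 1.57 ± 0.38, or 2.97-fold (adjusted p = 0.0804, blocked adjusted p = 0.0286). *mcm5.S* differed by 1.03 ± 0.27 and passed in neither fit (adjusted p = 0.104, blocked adjusted p = 0.0707). *mcm2.L*, the partner of MCM5 at that gate, read 7.44, 7.78, 8.73 and 8.09 in EFTF caps, against 7.09, 6.68, 6.80 and 7.01 in GFP caps. These groups did not overlap, and the change was 1.11 ± 0.26 (adjusted p = 0.0768, blocked adjusted p = 0.0461).

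For *mcm7*, both homoeologs separated the groups. *mcm7.L* read 8.73, 8.83, 9.65 and 10.08 in EFTF caps and 8.38, 7.81, 7.99 and 8.65 in GFP caps, a change of 1.12 ± 0.33 (adjusted p = 0.135, blocked adjusted p = 0.0379). *mcm7.S* read 6.42, 6.75, 7.16 and 7.90 in EFTF caps and 6.13, 5.42, 5.09 and 6.28 in GFP caps, a change of 1.33 ± 0.37 (adjusted p = 0.121, blocked adjusted p = 0.0438). MCM7 is a core subunit of the helicase motor with MCM4 and MCM6.

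*X. laevis* has distinct genes for maternal and zygotic MCM6. The RefSeq synonyms give mmcm6 for *mcm6.L* and zmcm6 for the *mcm6.2* genes. The zygotic *mcm6.2.L* read 5.40, 6.18, 6.72 and 7.16 in EFTF caps, against 5.17, 4.51, 4.77 and 6.05 in GFP caps. It differed by 1.24 ± 0.44 (adjusted p = 0.196, blocked adjusted p = 0.0493), and *mcm6.2.S* by 1.38 ± 0.47 (blocked adjusted p = 0.0673). The maternal *mcm6.L* read 5.36, 5.15, 5.08 and 5.21 in EFTF and 5.45, 5.47, 5.40 and 5.07 in GFP caps, so that the arrays of both groups covered one narrow range. Its change was -0.15 ± 0.12 (adjusted p = 0.635).

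*mcm3.L*, the other subunit with a separate zygotic gene, read 3.42, 3.15, 3.19 and 3.10 in EFTF and 3.55, 3.24, 3.08 and 3.004 in GFP caps, near background and below it on 1 EFTF array (change -0.0028 ± 0.15, adjusted p = 0.996). Its zygotic counterpart *zmcm3.L*, no member by name and picked with its values known, had a difference of 0.73 ± 0.31 (adjusted p = 0.284, blocked adjusted p = 0.084). The difference in change between copies was tested within arrays by an exact two-sided permutation test, for 5 pairs chosen after their values were seen. It was 1.39 for *mcm6.2.L* over *mcm6.L* (p = 0.0571, Benjamini-Hochberg p = 0.0952), 1.53 for *mcm6.2.S* over *mcm6.L* (p = 0.0571, Benjamini-Hochberg p = 0.0952, exact test) and 0.73 for *zmcm3.L* over *mcm3.L* (p = 0.171, Benjamini-Hochberg p = 0.171, exact test). Each was positive in 4 of 4 numbered pairs, the smallest p that 4 arrays against 4 allow is 0.0286 by the exact test, and none passed after adjustment. The test did not use the numbered pairing, and with pairs of genes chosen this way its p-values cannot serve as support for a difference.

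**Figure D3:**
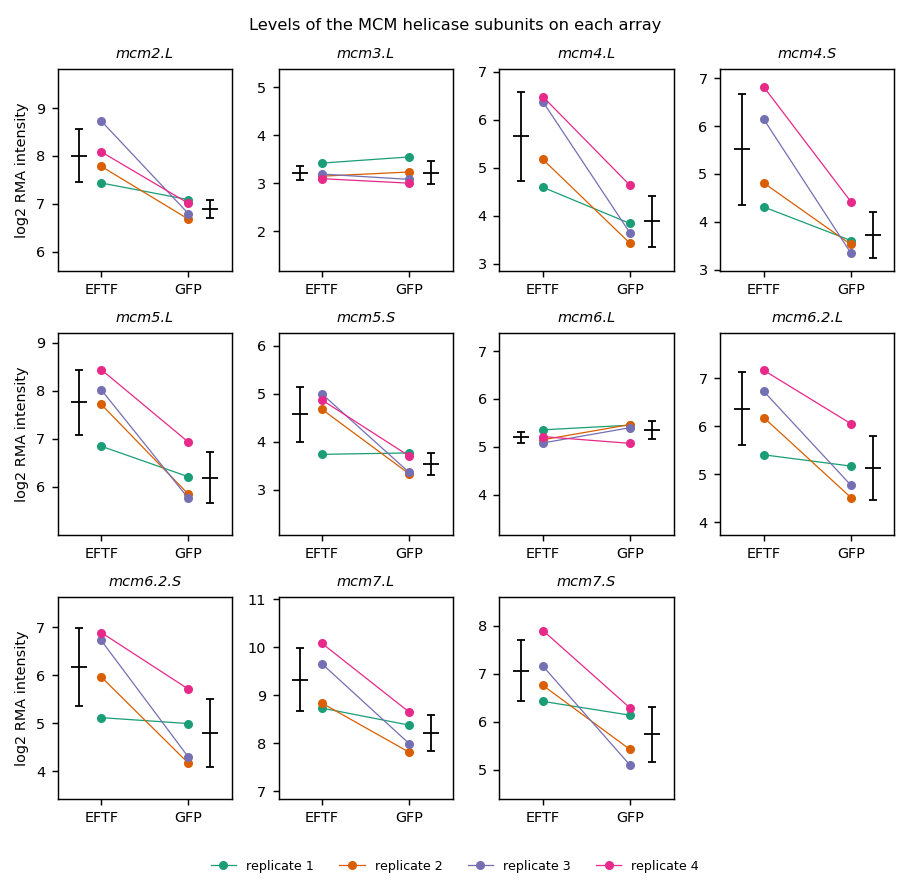
Log2 RMA intensity of 11 MCM helicase probe sets, the brightest for each symbol, with EFTF arrays at the left of each panel, GFP arrays at the right, lines joining arrays of the same replicate number, and bars for the mean and SD of 4 arrays. All panels span the same number of log2 units. The lines slope down to GFP for *mcm2*, *mcm4*, *mcm5.L*, *mcm6.2* and *mcm7* in all 4 pairs, and go both ways for *mcm3.L* and *mcm6.L*. The groups are free of overlap only for *mcm2.L*, *mcm7.L* and *mcm7.S*.

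*mcm10.L*, which helps to start the assembled helicase, and *mcm8.L*, a relative that acts in DNA repair, share the family name. *mcm10.L* read 3.50, 3.70, 3.85 and 3.47 in EFTF and 3.32, 3.47, 3.27 and 3.96 in GFP caps, overlapping throughout (change 0.13 ± 0.17, adjusted p = 0.803). *mcm8.L* exceeded background on only 1 of the EFTF and 2 of the GFP arrays.

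The genes that turn a licensed origin into a fork were higher on average in 6 of 7 cases, where 54.1% of all probe sets were. The block gave 1 call, where that fit called 4.91% of all probe sets higher. *gins1.S*, a subunit of the GINS complex, read 4.40, 5.06, 6.12 and 6.03 in EFTF caps, against 3.90, 3.80, 3.91 and 4.98 in GFP caps. EFTF 2, EFTF 3 and EFTF 4 were above every GFP array, and EFTF 1 was below GFP 4. The change was 1.26 ± 0.43, or 2.39-fold (adjusted p = 0.184, blocked adjusted p = 0.044). *cdc45.L*, which binds GINS and MCM in the active helicase, read 5.22, 5.45, 6.60 and 6.59 in EFTF caps, against 4.99, 4.71, 4.36 and 5.28 in GFP caps. It was higher on average by 1.13 ± 0.36 and did not pass (adjusted p = 0.16, blocked adjusted p = 0.0785).

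The kinase that fires origins followed the same direction. *cdc7.L*, its catalytic subunit, separated the groups with a change of 0.84 ± 0.25 (adjusted p = 0.142, blocked adjusted p = 0.132), and *dbf4.L*, its activator, differed by 0.88 ± 0.46 (adjusted p = 0.391). The other GINS genes gave little: *gins3.L* differed by 0.38 ± 0.25 (adjusted p = 0.515), *gins2.L* exceeded background on 2 EFTF arrays and no GFP array, and *gins4.L* on 1 GFP array and no EFTF array.

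The changes of the primase and polymerase genes ran from 0.04 to 1.01. All 10 probe sets were higher on average (9 when array medians were made equal, with *pole3.L* turned), and the median was 0.42. The 1 call came with the block, where that fit called 4.91% of all probe sets higher. *prim2.S*, the large primase subunit, read 5.19, 5.28, 5.88 and 5.92 in EFTF caps, against 4.92, 4.36, 4.63 and 4.75 in GFP caps. Its groups did not overlap, and it differed by 0.90 ± 0.21 (adjusted p = 0.0765, blocked adjusted p = 0.0384). The small catalytic subunit *prim1.S* differed by 0.88 ± 0.45 (adjusted p = 0.378), with GFP 2 the lowest array.

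*pole2.L*, the second subunit of the leading strand polymerase epsilon, read 6.35, 7.29, 7.99 and 7.95 in EFTF and 6.09, 6.72, 5.84 and 6.89 in GFP caps. The change of 1.01 ± 0.40 passed in neither fit (adjusted p = 0.246, blocked adjusted p = 0.0962). *pola1.S*, the catalytic subunit of polymerase alpha, differed by 0.11 ± 0.10, and *pold3.L* and *pole3.L* by 0.08 and 0.04 (adjusted p from 0.663 to 0.940). For *pola2.L*, *pold2.L* and *pole4.L* the changes were 0.46, 0.59 and 0.37, also without a call. Differences in change between subunits were not tested.

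The sliding clamp and its loader had a higher mean in EFTF caps in all 9 probe sets. *pcna.L*, the clamp that tethers polymerases to DNA, read 9.04, 9.54, 9.89 and 10.29 on EFTF arrays, against 8.84, 8.08, 7.55 and 8.73 on GFP arrays. The groups did not overlap. It differed by 1.39 ± 0.35, or 2.62-fold, with adjusted p = 0.0909 and, with replicate 4 as a batch, adjusted p = 0.0455, while the replicate block gave adjusted p = 0.0532. *pcna.S* read 5.80, 5.20, 7.29 and 7.25 in EFTF caps, against 5.99, 4.56, 4.69 and 4.80 in GFP caps. EFTF 1 and EFTF 2 lay well below the other EFTF arrays, GFP 1 lay above both, and the difference was 1.37 ± 0.54 (adjusted p = 0.238).

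RFC opens the clamp and closes it on the primer. *rfc2.L* read 5.81, 6.14, 6.64 and 6.87 in EFTF caps, against 5.29, 4.69, 4.88 and 5.35 in GFP caps. With a change of 1.31 ± 0.26 it was the second nearest member to a call (adjusted p = 0.0542), and it passed with the block (adjusted p = 0.0279), with quantile normalization, without dim probe sets and with a trended prior. *rfc4.L* read 5.75, 5.89, 6.34 and 6.56 in EFTF and 5.39, 4.86, 5.003 and 5.57 in GFP caps, again without overlap (change 0.93 ± 0.23, adjusted p = 0.0853, blocked adjusted p = 0.0325). *rfc5.L* separated the groups too (0.56 ± 0.17, adjusted p = 0.145), and the brighter *rfc3.L* probe set differed by 0.41 ± 0.24 (adjusted p = 0.471). *dscc1.L*, of the alternative loader that acts in sister chromatid cohesion, differed by 0.51 ± 0.28 (adjusted p = 0.422).

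The only member that passed the unpaired test was *rpa1.L*, the large subunit of the protein that coats single-stranded DNA. It read 3.88, 3.78, 3.73 and 3.80 on EFTF arrays, against 3.36, 3.16, 3.31 and 3.26 on GFP arrays. The 2 groups were tight, 3.80 ± 0.062 and 3.27 ± 0.085 (mean ± SD, n = 4 each), and did not overlap. All arrays were above background, but the GFP arrays only by a little, as their background was 2.90 to 2.97. RMA draws low values together, and its part in the small SDs was not tested. The rise was 0.53 ± 0.093, or 1.44-fold (limma adjusted p = 0.0424, blocked adjusted p = 0.0308). The limma call was lost within replicates 1 to 3 or 2 to 4, with equal array medians, without dim probe sets, with a trended prior, and without any single array other than EFTF 1, and over all alternatives its adjusted p ran from 0.0308 to 0.132. *rpa2.L* read 3.25, 3.60, 4.64 and 4.68 in EFTF and 3.14, 3.01, 3.16 and 3.30 in GFP caps, highest on EFTF 3 and EFTF 4 (change 0.89 ± 0.33, adjusted p = 0.208), and *rpa3.S* was near background.

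TIPIN works with Timeless to steady the fork. *tipin.S* read 7.60, 7.30, 7.73 and 8.47 in EFTF and 7.56, 7.38, 7.10 and 7.71 in GFP caps, with overlap (change 0.34 ± 0.25, adjusted p = 0.583), and the brighter *tipin.L* probe set differed by 0.03 ± 0.21 (adjusted p = 0.973).

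Genes that finish the lagging strand were higher on average in 3 of 3 cases. *lig1.L*, the ligase that seals Okazaki fragments, read 5.84, 5.18, 6.11 and 5.32 in EFTF caps, against 5.18, 4.90, 4.77 and 4.33 in GFP caps. Here EFTF 1 and EFTF 3 were the highest arrays, and the groups did not overlap, though EFTF 2 and GFP 1 nearly met. The change was 0.82 ± 0.25 (adjusted p = 0.147, blocked adjusted p = 0.0481). *fen1.L*, which encodes the flap nuclease, read 4.83, 5.88, 6.49 and 6.38 in EFTF and 4.49, 5.04, 4.70 and 5.57 in GFP caps (0.94 ± 0.39, adjusted p = 0.261, blocked adjusted p = 0.0587), and *fen1.S* differed by 0.37 ± 0.17 (adjusted p = 0.319).

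Enzymes that supply deoxynucleotides were higher on average in 6 of 7 probe sets. *tyms.L*, thymidylate synthase, read 4.68, 5.42, 6.10 and 5.73 in EFTF caps, against 4.36, 4.28, 4.11 and 4.37 in GFP caps. Every EFTF array was above every GFP array, and the change was 1.20 ± 0.27, or 2.3-fold (adjusted p = 0.0741, blocked adjusted p = 0.045). *dut.L*, the dUTPase that keeps uracil out of DNA, differed by 1.04 ± 0.37 (adjusted p = 0.198, blocked adjusted p = 0.071), and *rrm1.L*, the large subunit of ribonucleotide reductase, by 0.98 ± 0.37 (adjusted p = 0.219, blocked adjusted p = 0.0613).

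The small subunit of ribonucleotide reductase is encoded by several genes. *rrm2.2.L* read 7.97, 7.77, 7.96 and 9.58 in EFTF caps, against 7.89, 6.83, 6.18 and 7.30 in GFP caps. EFTF 4 stood well above the others, and GFP 1 lay inside the EFTF range (change 1.27 ± 0.48, adjusted p = 0.225, blocked adjusted p = 0.0773). The related gene *rrm2.1.L* read 8.75, 8.45, 8.83 and 8.96 in EFTF and 8.99, 8.99, 9.08 and 8.61 in GFP caps, a change of -0.17 ± 0.15 (adjusted p = 0.65). *rrm2b.S*, the p53-inducible form in mammals, read 9.999, 9.38, 9.56 and 10.06 in EFTF and 9.99, 8.69, 8.48 and 8.84 in GFP caps, where GFP 1 was level with the highest EFTF arrays (0.75 ± 0.33, adjusted p = 0.297). *rrm2.2.L* exceeded *rrm2.1.L* in change by 1.44 (exact permutation p = 0.0286, the smallest possible here, and Benjamini-Hochberg p = 0.0952), and *rrm2b.S* did so by 0.92 (exact permutation p = 0.0857, Benjamini-Hochberg p = 0.107). Both differences were positive in 4 of 4 numbered pairs and neither passed after adjustment. These pairs of genes were also chosen after their values were seen, so the p-values cannot serve as support for a difference.

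**Figure D4:**
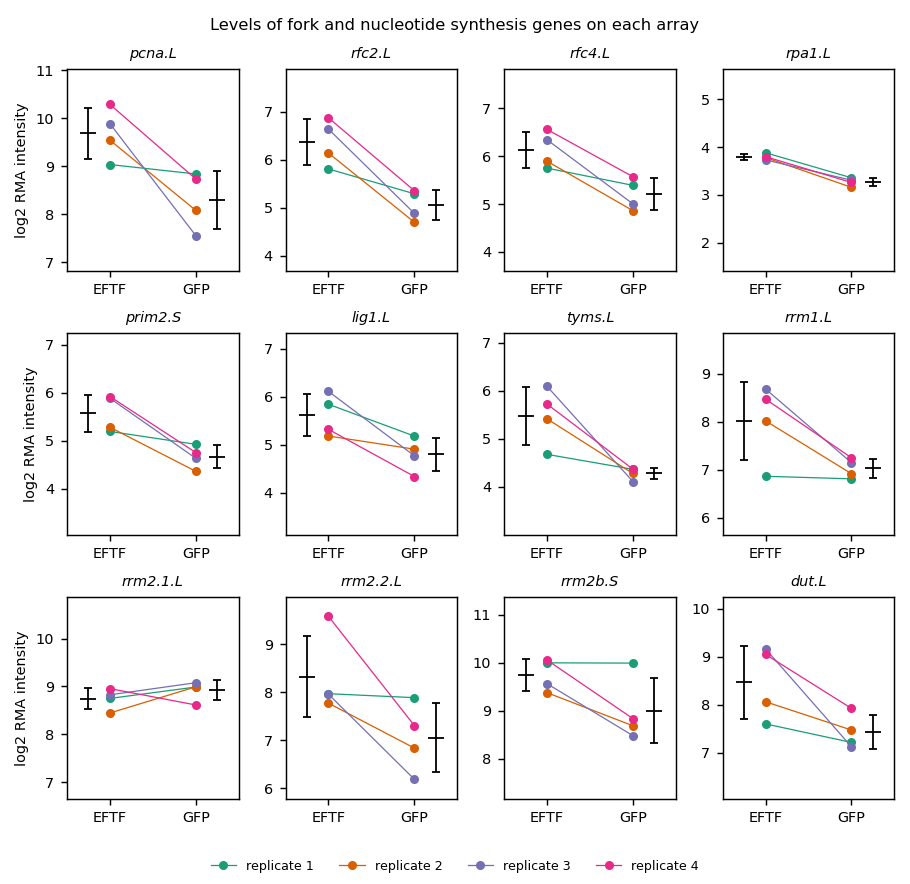
Log2 RMA intensity of 12 probe sets for the clamp and its loader, single-strand binding, primase, ligase and nucleotide synthesis, with EFTF arrays at the left and GFP arrays at the right of each panel, lines joining arrays of the same replicate number, and bars for the mean and SD of 4 arrays. All panels span the same number of log2 units; *rpa1.L* has the tightest groups of these panels, and *rrm2.1.L* is lower in EFTF caps in 3 of 4 pairs.

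Homoeologs were measured separately for 9 genes, and both copies of all 9 had the higher mean in EFTF caps (8 of 9 when array medians were made equal, with *tipin.L* turned). The changes of the .L and .S copies differed by 0.013 for *pcna*, 0.018 for *mcm4* and 0.024 for *gmnn*, and by 0.54 for *mcm5* and 0.57 for *fen1*, where .L had the larger change. Probe sets that hybridise to both copies cannot be recognised from the annotation, so the copies are not independent measurements.

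The size of the difference varied with the replicate number. The median over the members of EFTF minus GFP was 0.17 between arrays numbered 1, 0.49 between those numbered 2, 1.12 between those numbered 3 and 0.83 between those numbered 4. It was positive for 49, 58, 62 and 61 of 69 members in the same order, while the median over all probe sets stayed between -0.025 and 0.049. Of the 57 members above background on all arrays, EFTF 4 was the highest EFTF array for 31 and EFTF 3 for 22, and EFTF 1 was the lowest for 38. GFP 4 was the highest GFP array for 30 members and GFP 1 for 17. With both arrays numbered 1 left out, an alternative added after the data were seen, 4 members were called higher and 0 lower (1.23% of all probe sets higher, 0.826% lower and 2.06% either) and the median change was 0.85.

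**Figure D5:**
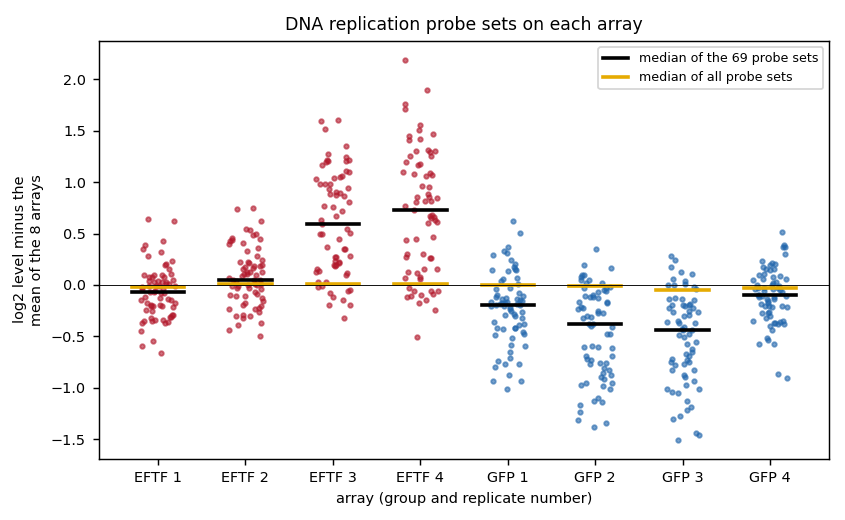
Each point is a member probe set on 1 array, as its log2 level minus its mean over the 8 arrays; black bars are medians of the 69 members and yellow bars medians of all probe sets. The member medians are 0.59 on EFTF 3 and 0.72 on EFTF 4, -0.063 and 0.050 on EFTF 1 and EFTF 2, and -0.44 to -0.10 on the GFP arrays.

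Markers of cell types moved with the groups on the same arrays. Of 14 neural plate symbols, 8 were called higher (11 with the block), and their summed linear intensity was 4195 to 7464 in EFTF caps, against 579 to 1360 in GFP caps, highest on EFTF 3 and EFTF 4. This list includes *otx2* and *rax*, which were also injected. Per the legends of the study, the *otx2* and *rax* probe sets it used read the endogenous transcripts and not the injected RNAs, but those legends give no probe set IDs to match with the ones summed here. Of 9 multiciliated cell symbols, 1 was called lower (9 with the block), with sums of 685 to 2417 in EFTF and 2568 to 4159 in GFP caps, and the ionocyte sum was 130 to 1777 in EFTF and 3278 to 3941 in GFP caps, 2 of 7 symbols called lower. Both sums were lowest on EFTF 3 and EFTF 4, the arrays where most members were highest. All 10 epidermal symbols were lower on average in EFTF caps (median change -0.47). None of them was called in the unpaired fit (2 at an unadjusted p under 0.05, both lower, and 1 lower with the block), and 9 of the 10 were above background on all arrays. Their sums were 16312 to 24905 in EFTF and 24345 to 28971 in GFP caps, and were also lowest on EFTF 3 and EFTF 4. None of the 6 mesoderm or 8 endoderm symbols was called either (0 and 1 at an unadjusted p under 0.05, 0 with the block). Only 0 and 1 of them were above background on all 8 arrays, and 2 and 3 on no array, so signal limits what these 2 lists can show. The part of these cell types in the change of the replication genes was not tested.

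Related replication genes outside the name rule were measured too. Of 82 probe sets in 4 lists, 1 was called higher and 0 lower, with 9 higher and 1 lower under the block, and the median change was 0.22. Over all probe sets, limma called 0.762% higher and 0.658% lower, and with the block 4.91% and 5.25%. At an unadjusted p under 0.05 the shares of all probe sets were 9.30% higher and 7.98% lower. In the list of histone supply and replication-coupled chromatin genes all 17 probe sets were higher on average (median 0.80), with 1 called higher and 7 with the block, 4 of which read *nasp* homoeologs. For other replisome and checkpoint genes, 20 of 26 were higher on average (17 with equal array medians; median 0.23), and 0 were called in limma, 6 being higher and 0 lower at an unadjusted p under 0.05 and 0 with the block. Nucleotide biosynthesis outside the members was centred at -0.043, with 10 of 27 probe sets higher on average (7 with equal array medians). In limma 0 were called (1 higher and 2 lower at an unadjusted p under 0.05), and 1 was lower with the block. These probe sets read 14 of the 22 listed genes, and many of them read the single symbol *ctps2.L*, which weighs on the count and the median. The measured regulators of S phase entry had all 12 probe sets higher on average (11 with equal array medians, median 0.30). In limma 0 were called, with 4 higher at an unadjusted p under 0.05 and 2 higher with the block. These probe sets read 10 of the 20 listed genes, and none of the listed inhibitors of cyclin-dependent kinases was among them.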

How the data were processed

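RNA of 8 animal cap pools was hybridised to Affymetrix *X. laevis* GeneChips, 1 array each. The authors preprocessed the scans with RMA and deposited intensity on a linear scale. The methods add a GeneSpring scaling step, and whether it is in the values is not given, nor which arrays went through RMA together. RMA draws low values together, so changes of dim genes are understated. Values were log2-transformed here, without pseudocount or further normalization. Groups and replicate numbers came from sample titles. The methods describe fewer replicates than the 4 of the series, and nothing ties an array to a day or female, so n = 4 counts arrays and p-values measure the spread between them.

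Of 15611 probe sets, 120 controls were left out. Symbols came from an array annotation table, and the gene IDs of 69 of 69 members are in a RefSeq table of Xenopus_laevis_v10.1 under the same symbol. Probe sets with several symbols were not used. Limma 3.58.1 in R 4.3.3 (lmFit, eBayes, two-sided) compared groups without covariates, with Benjamini-Hochberg adjustment over 15491 probe sets at 0.05, and was tested on simulated data. The pairing check correlated deviations from group means over all probe sets, giving 0.439, 0.595, 0.217 and 0.639 for numbers 1 to 4 and -0.453 to 0.281 for unlike numbers. The median SE of a member's change was 0.25, and the number of arrays limits precision.

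Full values are given for members called in the unpaired or blocked fit and, per function, for the brightest member and the largest change above background on all arrays, which gave 26 probe sets. *mcm3.L*, *mcm6.L*, *rrm2.1.L* and other members were added after their values were seen. For symbols with more than 1 probe set, values are those of the brightest. Members, lists and the alternatives (blocks, scaling, filter, prior, pseudocount, test, arrays left out) were chosen with earlier results of these data known.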

Additional observations from a re-analysis of the deposited data

Results flagged for a closer look

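In 3 of 56 groups of 4 arrays tested, 1 array lay far from the others of its group by Dixon's test, and chance marks about 1 group in 20. *gins1.S* read 4.98 on GFP 4, where the nearest GFP array read 3.91. *rrm2.2.L* read 9.58 on EFTF 4, where the nearest EFTF array read 7.97. *mcm6.L* read 5.07 on GFP 4, below the nearest GFP array at 5.40.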

How the results depend on the processing

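The median change of the members stayed positive under every alternative run, from 0.42 (pseudocount of 16) to 0.85 (replicates 2 to 4), and every call of a member in any of them was a higher level in EFTF caps. The number of calls did not hold. Against 1 in the unpaired fit, 17 members were called with the replicate block and 12 when replicate 4 was a batch. There were 9 at a threshold of 0.1 (4.80% of all probe sets, counted in either direction), 4 within replicates 2 to 4 and 2 after quantile normalization. The count was 0 within replicates 1 to 3, with equal array medians or by Student's unpaired t-test. The study used that t-test to compare EFTF caps with embryo tissues, and it reports no such test against control caps. Over all probe sets the count was 220 (118 higher, 102 lower), and it was 1575 with the block and 754 with the batch term. It was 92 with the pseudocount, 18 within replicates 1 to 3 and 2 by Student's unpaired t-test. With equal array medians it was 124 higher and 170 lower, and after quantile normalization 157 higher and 137 lower.

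Leaving out 1 array at a time gave 0 to 12 called members, 25 to 702 called probe sets and a median change of the members from 0.47 to 0.76. The 12 came without EFTF replicate 1, and 0 without any other array. *mcm3.L*, at -0.0028, turned to 0.039 within replicates 2 to 4 and ranged from -0.074 to 0.11 without single arrays. The cause of these shifts was not tested. For the 12 members near background, signal limits what the arrays can show.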

Other observations

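In the list of histone supply and chromatin genes, 4 of the 7 probe sets called with the block read 1 gene, *nasp*, which carries histones H3 and H4 to chromatin. The one of *nasp.L* that passed in limma read 8.27, 8.55, 8.98 and 9.29 in EFTF caps, against 7.65, 7.69, 7.44 and 7.55 in GFP caps. All EFTF arrays were above all GFP arrays, a rise of 1.19 ± 0.22 (adjusted p = 0.0452, blocked adjusted p = 0.0308), and its name marks probes that may cross-hybridise. A second *nasp.L* probe set differed by 0.93 ± 0.18 (adjusted p = 0.0504, blocked adjusted p = 0.0392). The histone chaperone gene *asf1b.L* differed by 1.70 ± 0.54 (adjusted p = 0.153, blocked adjusted p = 0.031). *chaf1a.L*, of the assembly factor that PCNA recruits, differed by 1.06 ± 0.32 (adjusted p = 0.14, blocked adjusted p = 0.0313). The brighter probe set of *slbp.L*, which binds histone mRNA, differed by 1.56 ± 0.32 (adjusted p = 0.059, blocked adjusted p = 0.0443). Its dimmer probe set differed by only 0.16 ± 0.13 (adjusted p = 0.616, blocked adjusted p = 0.492). *slbp.S* differed by 0.78 ± 0.31 and passed in neither fit (adjusted p = 0.249, blocked adjusted p = 0.139).

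Among regulators of S phase entry, *e2f1.L*, a transcriptional activator of replication genes, read 3.94, 3.96, 4.72 and 4.54 in EFTF caps, against 3.31, 3.19, 3.09 and 3.50 in GFP caps. The groups did not overlap (change 1.02 ± 0.20, adjusted p = 0.056, blocked adjusted p = 0.031). *cdc25a.L*, the phosphatase that activates cyclin-dependent kinases, differed by 1.04 ± 0.35 in its brighter probe set (adjusted p = 0.18, blocked adjusted p = 0.0265). Its dimmer probe set, above background on 3 EFTF arrays and 1 GFP array, differed by 0.15 ± 0.14 (adjusted p = 0.672, blocked adjusted p = 0.361). The single related gene called lower with the block was *shmt1.L*, a serine hydroxymethyltransferase of folate metabolism (-0.82 ± 0.28, adjusted p = 0.178, blocked adjusted p = 0.021).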
